A study of Mus musculus with 46 samples.

Results

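The miRNAs of the imprinted Dlk1-Dio3 domain of mouse chromosome 12 were taken from the 1881 mouse miRNAs on the array by the number in their names, from miR-127 to miR-3072, with every letter and arm. This gave 110 miRNAs. RefSeq on the build GRCm38.p6 holds a mature sequence for 106 of them, and 105 of these lie on chromosome 12 between chr12:109563710-109747949, a stretch of 184.2 kb with 56 hairpin genes. On this stretch 101 mature miRNAs are read from the plus strand and 4 from the minus strand. miR-376c-3p, miR-485-5p, miR-487b-3p and miR-539-3p have the name alone. miR-496b shares its number with the cluster and lies on chromosome 19, and it was detected on no array. The members were divided into 10 miRNAs of hairpins listed by name as opposite the gene Rtl1 (miR-431, miR-433, miR-127, miR-434 and miR-136), 70 miRNAs placed from miR-379 to miR-410, and 25 others on chromosome 12. Some of these others, such as miR-337, miR-540 and miR-665, also lie within the RefSeq span of Rtl1.

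All arrays held total RNA of male C57BL6 mice of an Il1a knock-out strain, and no group without this deletion was measured. The age of the animals is not given in the sources used here. Brain, heart and liver were cut into parts after death. Each part was stored either cold (4 °C) or without cooling (room temperature, RT). Storage lasted 0, 1, 3, 6, 12, 24, 48 or 96 h, until transfer into RNAlater, a reagent that stabilizes RNA. At 4 °C no heart array of 0 h and no liver array of 6 or 96 h was analysed. There were 8 brain arrays from 4 °C and 8 from RT, 7 heart arrays from 4 °C and 8 from RT, and 6 liver arrays from 4 °C and 8 from RT, 45 in all. RNA integrity is given as the RIN value, which is high for intact and low for broken RNA, and arrays with RIN over 6 are called intact here. These were 14 brain arrays (RIN 7.3 to 8.7), 13 heart arrays (8.1 to 9.0) and 6 liver arrays (7.1 to 9.1). The other 2 brain, 2 heart and 8 liver arrays had RIN values from 2.2 to 6.0. The arrays of a tissue and temperature lay on 1 slide and came from the parts of 1 animal's organ, so that no time point has a replicate, and within a tissue the slide, the animal and the temperature cannot be told apart. The paper's methods state that the 3 tissues profiled belonged to the same individual. The RIN values listed for single animals do not bear this out for the heart arrays. Whether the tissues of a temperature share an animal is therefore not settled here. The p-values therefore measure the spread between these arrays, which may be technical.

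The Dlk1-Dio3 domain is imprinted, which means that its genes are read from the chromosome of 1 parent. The long non-coding RNAs Meg3, Rian and Mirg and the miRNAs along them are made from the maternal chromosome, and the protein-coding genes Dlk1, Rtl1 and Dio3 from the paternal chromosome. In adult mammals the miRNAs of the domain are known mainly from the brain, where miR-134 acts in the dendrites of neurons, while those opposite Rtl1 pair fully with the Rtl1 transcript.

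The mature sequences below, from RefSeq on GRCm38.p6, are those of the members on which the results turn, written 5′ to 3′ with the seed (bases 2 to 8, which pair with target transcripts) in capitals. The first 6 were among the brightest in brain or differed most between brain and the other tissues.
miR-434-3p: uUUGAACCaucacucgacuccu
miR-127-3p: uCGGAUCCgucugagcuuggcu
miR-376a-3p: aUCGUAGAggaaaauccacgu
miR-410-3p: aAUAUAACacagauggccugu
miR-433-3p: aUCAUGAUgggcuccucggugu
miR-379-5p: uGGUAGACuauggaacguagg
The next members were bright in all tissues or changed with storage or RIN.
miR-494-3p: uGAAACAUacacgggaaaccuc
miR-3072-5p: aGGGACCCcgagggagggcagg
miR-134-5p: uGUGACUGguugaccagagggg
miR-541-5p: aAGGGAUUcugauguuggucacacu
miR-341-3p: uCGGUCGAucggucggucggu
miR-1188-5p: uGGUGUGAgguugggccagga
miR-370-3p: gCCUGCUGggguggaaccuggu
The last pair shares its seed.
miR-379-3p: uAUGUAACaugguccacuaacu
miR-411-3p: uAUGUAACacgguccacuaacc

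The guanine and cytosine (GC) content of the 106 sequences ranged from 23.8% to 77.3%, with a median of 50%, and miR-3072-5p was at the upper end. The 106 miRNAs carried 97 different seeds. Of the 9 seeds held by a pair of members, that of miR-379-3p and miR-411-3p was the one with both members detected on all 16 brain arrays. miR-379-5p was detected on 19 and miR-376b-5p on 16 of the 45 arrays, while their partners, miR-1193-5p and miR-376c-5p, were detected on none. Both members of the pairs miR-3070-2-3p and miR-3070-3p (34 and 5 arrays) and miR-299a-3p and miR-299b-3p (6 and 3) were also detected.

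A level here is the log2 value after variance stabilizing normalization (VSN) of the background-subtracted signal, and a miRNA counts as detected where the scanner software says so. The lowest detected signal of an array lay between 0.19 and 1.74 on this scale. Detection is called for each miRNA, so that one not detected can lie above this signal. On the liver array of 0 h at 4 °C, for example, miR-299b-5p was not detected at 2.62. Values of miRNAs not detected carry no order, and they are called under detection below. Levels of different miRNAs come from different probes and give no ratio of amounts. The summed signal of detected miRNAs was 153088 to 541770 units per array. The tissue labels were borne out by marker miRNAs, whose log2 levels were summed on each array. The 5 brain markers summed to 54.78 to 62.57 in brain, at most 13.34 in heart and 12.62 in liver. The 4 heart markers summed to 41.28 to 46.79 in heart, at most 11.62 in brain and 2.54 in liver. The 3 liver markers summed to 24.56 to 38.09 in liver, at most 15.41 in brain and 18.57 in heart. All markers of a tissue were detected on each of its arrays. Detection alone does not separate the tissues, as all 3 liver markers were also found on each heart array.

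Cluster miRNAs were detected in brain in large number and in heart and liver in small number. Of the 110 members, 70 were detected on some brain array, 27 on some heart array and 31 on some liver array, and 33 (30%) were detected nowhere, against 809 (43.0%) of all miRNAs. For detection on some array of a tissue the share over all miRNAs was not counted. Each brain array had 57 to 67 members (median 59.5), each heart array 7 to 19 (median 12) and each liver array 3 to 23 (median 7), so that the brain arrays did not overlap with those of the other tissues. Over all miRNAs the counts were 491 to 798 (median 547) in brain, 374 to 683 (median 422) in heart and 268 to 726 (median 398) in liver. These overlapped. On every brain array 55 members were detected, as were 432 miRNAs of the whole array. Of the 55, 30 were detected on no heart and no liver array, which was the case for 53 of the 432. The members made up 2.16% to 3.66% of the detected signal in brain, 0.17% to 0.973% in heart and 0.0371% to 1.33% in liver.

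More members were detected on liver arrays of low integrity than on intact ones, and the same was seen over all miRNAs. Intact liver arrays had 3 to 7 members and 268 to 381 miRNAs in all, and liver arrays with RIN up to 6 had 3 to 23 members and 368 to 726 miRNAs. On the liver array of 96 h at RT, with RIN 2.3, 23 members were detected. In all, 20 members were detected on some liver array of low integrity and on no intact one. Among them miR-341-3p, miR-431-5p and miR-433-5p were chosen for mention after their values were seen. This class was not counted over all miRNAs, so the 20 cannot be read as particular to the cluster. In brain the count went from 57 at 0 h to 67 at 96 h of RT storage, while the share of members among detected miRNAs went down to 8.4% at 96 h from a range of 10.3% to 11.7% on the intact arrays. The plot of detection against RIN shows both counts side by side.

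**Figure D1:**
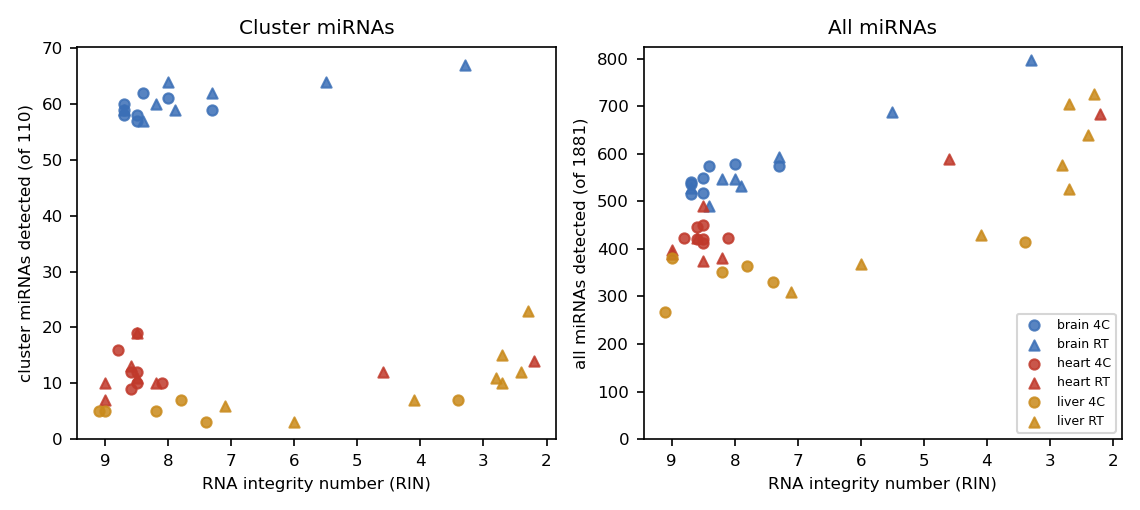
Number of cluster miRNAs detected (left, of 110) and of all miRNAs detected (right, of 1881) on each of the 45 arrays against RIN, which falls from left to right. Colours mark tissues, circles 4 °C and triangles RT. The brain arrays hold 57 to 67 members at every RIN, while liver goes from 3 to 7 members on intact arrays up to 23 at the lowest RIN values.

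For the tests, 66 members and 815 miRNAs in all that were detected on at least 5 of the 45 arrays were used. Of these 66 members, 50 had fewer than 5 detections outside brain and passed only with the brain arrays. This favours members that are higher in brain, and the counts below are to be read with this. One of them, miR-3070-3p, with 1 brain and 4 liver detections, was not called higher in brain. As it nearly passed without brain arrays, it does not speak for the members detected mainly in brain, whose direction the filter favoured. The 66 hold all 10 members opposite Rtl1, 39 of 70 from miR-379 to miR-410, 14 of 25 others on chromosome 12 and 3 of the 4 without a table sequence.

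The brightest members in intact brain were miR-434-3p, miR-127-3p, miR-376a-3p and miR-136-5p, followed by miR-300-3p, miR-410-3p, miR-154-5p, miR-494-3p, miR-382-5p and miR-487b-3p. miR-434-3p had a lowest level of 9.77, a median of 10.27 and a highest level of 11.28 over the 14 intact brain arrays, against 2.0, 2.41 and 3.32 in the 13 intact heart arrays and 1.18, 1.53 and 1.96 in the 6 intact liver arrays. It was detected on 5 of the 13 heart arrays and on no liver array. The groups lay far apart, without any overlap between brain and the rest. miR-127-3p, which lies opposite Rtl1, had 9.66, 10.34 and 10.71 in brain, 2.43, 2.72 and 4.57 in heart and 1.06, 1.41 and 1.56 in liver. It was found on all 13 intact heart arrays, the brightest of which was that of 6 h at RT, and on none of the liver arrays. miR-376a-3p, whose hairpin lies between those of miR-379 and miR-410, had 9.28, 9.76 and 10.35 in brain, 2.07, 2.95 and 4.01 in heart and -1.24, 0.53 and 3.23 in liver, where only the RT array of 0 h was called detected. The means of the 4 brightest were 10.32 ± 0.37, 10.28 ± 0.28, 9.79 ± 0.29 and 9.79 ± 0.47 (SD, n = 14), so that neighbours in this order differed by less than or about the spread between arrays. The lowest of the 10, miR-487b-3p, was at 8.10 ± 0.32.

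**Figure D2:**
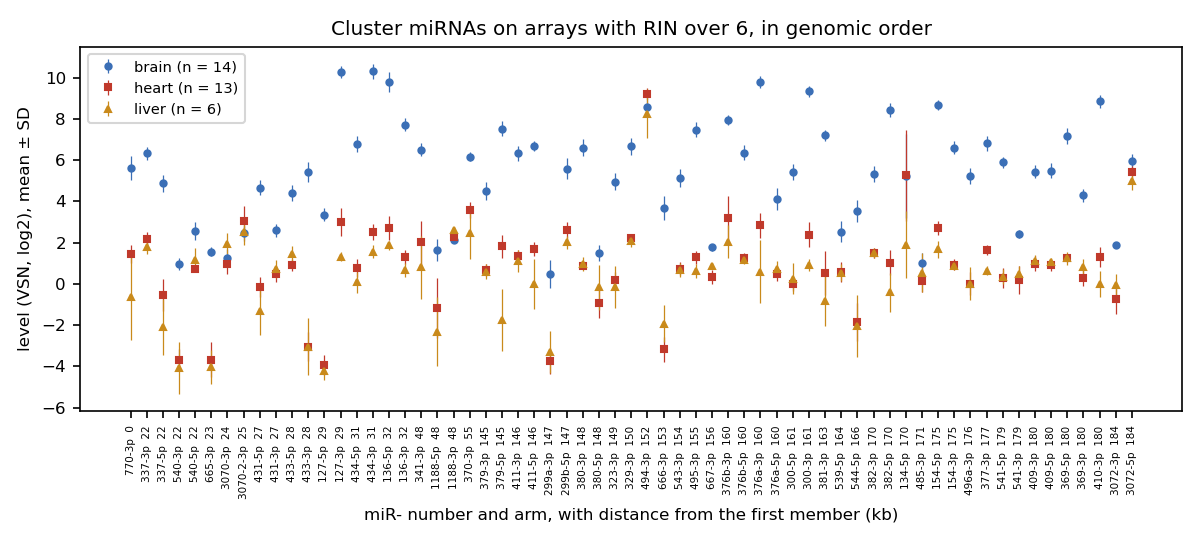
Mean level ± SD (VSN, log2) of the 63 tested members placed on chromosome 12, in genomic order with the distance from the first member in kb, on the intact arrays of brain (n = 14), heart (n = 13) and liver (n = 6). Brain lies above heart and liver for most members, while the heart means of miR-494-3p (9.23) and miR-134-5p (5.26) are not below those of brain (8.56 and 5.23).

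Brain was compared with heart and with liver on the 33 intact arrays, and a member is called where limma gave an adjusted p under 0.05 (Benjamini-Hochberg, over 815 miRNAs) and a difference of at least 2-fold. In brain against heart 59 of the 66 were higher and 0 were lower. Over all tested miRNAs 35.2% were higher and 12.3% lower. In brain against liver 59 were higher and 0 lower, against 51.2% and 5.89% of all tested. Without the filter on detection, 70 of the 110 members (63.6%) were higher and 0 lower in brain than in heart, beside 21.4% and 8.45% of all 1881 miRNAs, and 67 (60.9%) were higher and 5 lower than in liver, beside 27.6% and 17.7%. Of the 16 members that passed the filter on heart and liver arrays alone, 11 were higher in brain than in heart and 12 than in liver. Beside this stand the 35.2% and 51.2% of all 815 tested, of which 164 passed only with brain arrays. The share among miRNAs that passed without brain arrays was not counted. When arrays were scaled by the 75th percentile or by quantiles, the median of all miRNAs moved from 1.12 to 0.33 or less in brain against liver, and 54 to 56 members were higher and 2 to 4 lower. With normexp background correction, which lifts dim signals, 26 were higher and 1 lower in each comparison. In bulk RNA, fewer cells that make a miRNA and less of it per cell cannot be told apart.

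The 2 sets of calls shared 58 members. miR-667-3p was called against heart alone and miR-134-5p against liver alone, and miR-1188-3p, miR-3070-2-3p, miR-3070-3p, miR-3072-5p, miR-485-3p and miR-494-3p in neither. For 58 members every intact brain array lay above every intact heart and liver array, as it did for 21.1% of all tested miRNAs, and for 50 members this held over all 45 arrays whatever their RIN, against 15.5% of all. The median difference of the tested members was 4.69 between brain and heart and 5.23 between brain and liver on the log2 scale, beside 0.44 and 1.12 for all tested miRNAs. The filter on detection bears on these medians too. For the 16 members that passed without brain arrays the medians were 4.28 and 4.85, beside 0.18 and 0.75 for all 651 miRNAs that passed in this way. For 306 tested miRNAs outside the cluster with numbers of 3 digits the medians were 0.57 and 1.28. For 31 miRNAs of the Sfmbt2 cluster, another imprinted miRNA cluster of rodents, they were 0.22 and 0.9.

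The differences of the leading members were many times their standard errors (SE). Where a miRNA was detected on no intact array of the dimmer tissue, its fold is given as a bound: the brain mean against the mean, over the dimmer arrays, of the lowest detected signal of each array or the miRNA's own value if higher. As a miRNA can go undetected above that signal, these bounds are approximate. miR-434-3p was higher in brain than in heart by 7.83 ± 0.16 (SE, limma, adjusted p = 1.35e-30), or 227-fold. miR-410-3p, detected on no intact heart array, was at least 154-fold higher in brain (difference 7.54 ± 0.19, adjusted p = 3.79e-28), and miR-382-5p at least 118-fold (7.41 ± 0.24, adjusted p = 7.39e-25). The largest fitted differences do not always give the largest bounds. miR-433-3p had the largest difference from heart, 8.48 ± 0.31 (adjusted p = 4.09e-23), yet its heart values, from -4.06 to -1.93, lay under detection, and it was at least 16.2-fold higher. miR-127-5p, with 7.30 ± 0.17, was at least 3.87-fold higher. miR-410-3p, miR-382-5p, miR-433-3p and miR-127-5p were detected on brain arrays alone and passed the filter only with them. Their p-values are therefore no separate support for a higher level in brain.

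Against liver the largest differences were 9.24 ± 0.37 for miR-379-5p (SE, limma, adjusted p = 7.97e-22, at least 59.9-fold) and 9.16 ± 0.37 for miR-376a-3p (adjusted p = 1.26e-21). miR-379-5p passed the filter only with brain arrays, so that its p-value is no separate support. The largest bound was that of miR-127-3p, at least 403-fold (8.94 ± 0.24, adjusted p = 7.96e-27), followed by miR-434-3p with at least 387-fold, miR-136-5p with at least 236-fold and miR-300-3p with at least 212-fold. These 4 were found on every brain array and on no intact liver array.

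**Figure D3:**
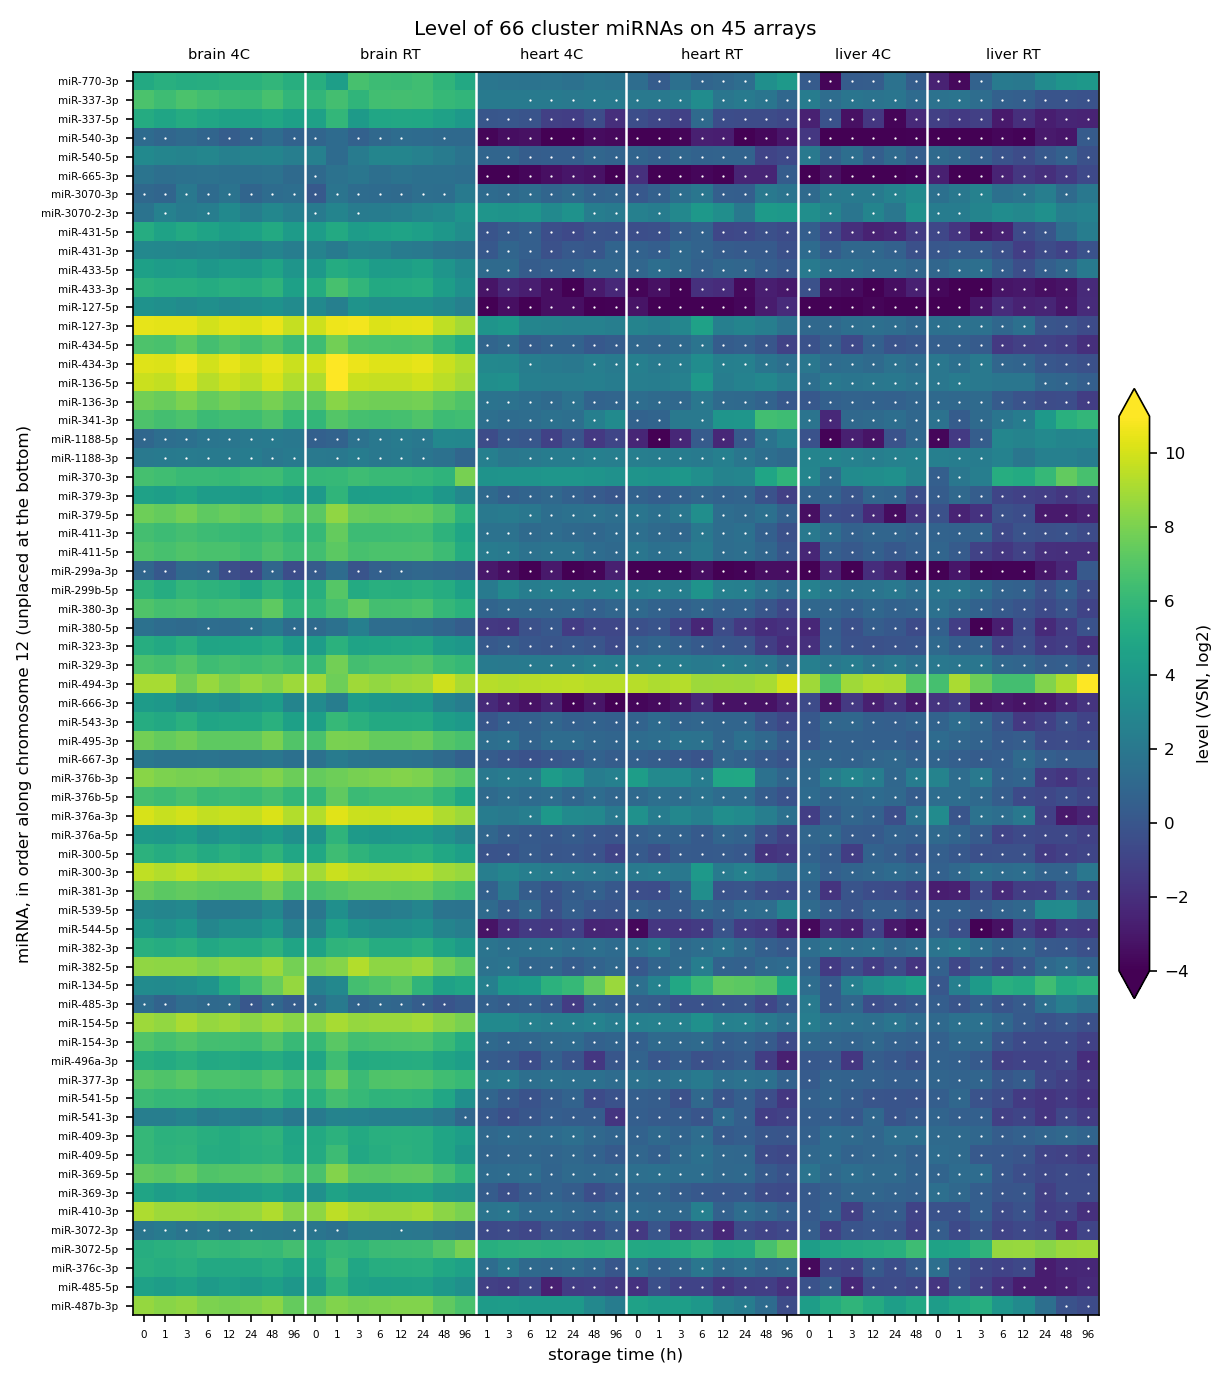
Level (VSN, log2, colour) of the 66 tested members (rows, in order along chromosome 12, with the 3 members without a position at the bottom) on the 45 arrays (columns, by tissue, temperature and storage time in h). White dots mark arrays on which the member was not detected. The brain columns are bright for most rows at every storage time, and the rows of miR-494-3p and miR-3072-5p are bright throughout.

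The hairpins listed by name as opposite Rtl1 had the largest median differences of the groups along the chromosome. Other hairpins within the span of Rtl1, such as miR-337 and miR-540, were counted with the others on chromosome 12, so that this order depends on the division chosen. All 10 of their miRNAs were called higher in brain than in both other tissues, with a median difference of 6.74 from heart and 7.33 from liver. For the 39 tested members from miR-379 to miR-410 the medians were 4.97 and 5.22, with 36 called in each comparison, and for the 14 others on chromosome 12 they were 2.73 and 3.87, with 10 called in each. The median level in intact brain was 6.11, 5.59 and 2.52 in the same order. These are descriptions with no test between the groups, and many of the heart and liver values behind the differences lie under detection. Of the 66 tested members 50 passed the filter only with brain arrays, which bears on these counts and medians.

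Both arms of a hairpin were often seen. They were tested for 21 of 53 hairpins with both on the array, the 3p arm alone for 18 and the 5p arm alone for 4. The fitted difference between brain and heart was 3.48 for miR-433-5p and 8.48 for miR-433-3p, 5.83 for miR-485-5p and 0.88 for miR-485-3p, and 7.41 for miR-382-5p and 3.83 for miR-382-3p. In miR-433 and miR-382 both arms were detected on all intact brain arrays and on no intact heart array, so that the gap between their arms rests on heart signals under detection and gives no order. miR-485-3p was detected on 2 of the 14 intact brain arrays.

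miR-494-3p and miR-3072-5p were the members detected on all 45 arrays. The levels of miR-494-3p in intact arrays were 7.71, 8.74 and 9.03 (lowest, median and highest) in brain, 8.81, 9.36 and 9.48 in heart and 6.59, 8.87 and 9.21 in liver. The 3 tissues overlapped. The difference of brain minus heart was -0.67 ± 0.24 (SE, limma, adjusted p = 0.013), which is under 2-fold, and brain differed from liver by 0.34 ± 0.30 (adjusted p = 0.311). The levels of miR-3072-5p were 5.32, 5.98 and 6.53 in brain, 4.98, 5.57 and 5.73 in heart and 4.36, 5.03 and 5.48 in liver. Brain was above heart by 0.52 ± 0.15 (adjusted p = 0.00245) and above liver by 0.97 ± 0.18 (adjusted p = 1.79e-05), with overlap between brain and both other tissues and each difference under 2-fold.

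Few members were well seen in heart and liver. On every heart array miR-127-3p, miR-136-5p, miR-370-3p, miR-494-3p and miR-3072-5p were detected, and on every intact liver array miR-3072-5p, miR-487b-3p and miR-494-3p. Heart was above liver for 19 members and below for 2, against 33.9% and 4.54% of all tested miRNAs, with a median of 0.28 over the 66 and 0.6 over all, and scaled by the 75th percentile over miRNAs detected throughout 5 were above and 3 below. Many of these differences are between signals under detection in both tissues, as for miR-410-3p and miR-382-5p. miR-127-3p was at least 2.59-fold higher in heart (difference 1.66 ± 0.24, SE, limma, adjusted p = 6.03e-07). miR-487b-3p was the member detected in liver that was lower in heart. Its levels were 4.28, 4.82 and 5.84 (lowest, median and highest) in intact liver and 2.29, 4.13 and 4.57 in intact heart, a difference of heart minus liver of -1.15 ± 0.31 (adjusted p = 0.00271) with overlap. In brain it was at 7.46, 8.12 and 8.61, above both. miR-666-3p, the other of the 2, was detected on neither intact heart nor intact liver arrays.

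Single arrays stood above their own tissue. On the brain RT array of 1 h, 37 of the 66 members had their highest brain level, against 27.5% of all tested miRNAs, and the members lay at a median of 0.55 above their brain medians (0.03 for all). On the heart RT array of 6 h, 23 members had their highest heart level, against 17.9% of all. There miR-300-3p was at 4.12 and miR-381-3p at 3.39, while the other heart arrays lay from 1.43 to 2.85 and from -0.62 to 2.09. Of the 5 brain markers on this heart array, miR-9-5p was detected, at 2.21, and miR-128-3p, found on every heart array, was at 6.02. miR-124-3p, a miRNA of neurons, was not detected there, at 1.62. The part of these arrays in the results was not tested apart from leaving each out, which kept between 59 and 60 calls of brain against heart or liver.

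Levels were then set against the RIN value within each tissue, with 1 intercept for each slide, to ask which members change as RNA breaks down. Slopes are in log2 units per RIN unit, and a positive slope means a lower level in degraded RNA. In brain 20 members fell with falling RIN and 1 rose, while 11.9% of all tested miRNAs fell and 27.5% rose. Of the 55 members detected on every brain array, 51 had a positive slope, with a median of 0.2, beside 0.17 for the 432 miRNAs of the whole array that were detected as widely. With no scaling between arrays, where the median slope of all miRNAs moved from 0.03 to -0.21, 17 of the 55 slopes were positive and 38 negative, so the fall is relative to the other miRNAs. The brain calls rest on the RT array of 96 h (RIN 3.3): without it 1 member was called. The summed level of the 5 brain markers was 58.29 to 62.57 on intact and 54.78 and 58.3 on the degraded brain arrays, and its part in the slopes was not tested.

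miR-541-5p, from the miR-379 to miR-410 group, had the largest positive slope in brain. At RT its levels after 0, 1, 24, 48 and 96 h were 5.55, 6.51, 5.67, 4.87 and 3.45, and at 4 °C they stayed between 5.32 and 6.23. The array of 96 h at RT thus lay below every other brain array. Its slope was 0.47 ± 0.10 (SE, limma, adjusted p = 0.000509). Next by the ratio of slope to error came miR-1188-3p with 0.22 ± 0.05 (adjusted p = 0.0015), miR-411-3p with 0.31 ± 0.08 (adjusted p = 0.00412) and miR-667-3p with 0.23 ± 0.06 (adjusted p = 0.00467). miR-1188-3p was detected on 2 of the 14 intact and on 2 of the 2 degraded brain arrays. Its detection thus did not fall with its level, and its slope mostly describes signals not detected. miR-3072-5p went the other way, with -0.42 ± 0.11 (adjusted p = 0.00322).

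In heart 31 members fell with falling RIN and 10 rose, against 13.6% and 34.4% of all tested miRNAs, and in liver 30 fell and 7 rose, against 11.5% and 42.1%. Most of the falling members were not detected in these tissues. In heart 22 of the 31, and in liver 27 of the 30, were detected on no array of the tissue, so that these slopes describe signals not called detected. Without the heart array of 96 h at RT (RIN 2.2) there were 10 in place of 41 heart calls, and without the liver array of 0 h at RT 21 in place of 37 liver calls. With no scaling between arrays 2 members fell and 10 rose in heart and 0 fell and 11 rose in liver, and with quantile normalization 9 fell and 8 rose in liver.

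Of the members that rose in degraded RNA, 7 of 10 in heart and 5 of 7 in liver were detected in the tissue. miR-341-3p, whose hairpin lies between the Rtl1 group and miR-370, was not detected on the heart RT arrays of 0, 1 and 6 h (0.74, 0.85 and 2.06). It was detected on that of 3 h and on each from 12 h on, and reached 3.82, 6.46 and 6.33 after 12, 48 and 96 h. Of the 13 intact heart arrays 4 detected it. In brain it stayed between 5.94 and 6.98 on all 16 arrays, so that the late heart arrays came up to the brain level. Its heart slope was -0.79 ± 0.17 (SE, limma, adjusted p = 0.000205). miR-1188-5p and miR-665-3p followed with -0.77 ± 0.16 (adjusted p = 0.000219) and -0.52 ± 0.10 (adjusted p = 0.000129), the first detected on 1 heart array and the second on none. miR-487b-3p had the largest positive heart slope, 0.68 ± 0.15 (adjusted p = 0.000304). Also among the first by the ratio of slope to error were miR-1188-3p with 0.18 ± 0.04 (adjusted p = 0.000168) and miR-496a-3p and miR-409-5p with 0.42 and 0.31, of which the last pair was not detected in heart. miR-1188-3p was detected on 1 of the 13 intact and 1 of the 2 degraded heart arrays.

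In liver the slope of miR-3072-5p was -0.64 ± 0.08 (SE, limma, adjusted p = 4.68e-08). Its levels at RT were 4.65, 4.8 and 5.73 at 0, 1 and 3 h and between 8.35 and 8.87 from 6 h on, a step that fell where RIN went from 4.1 to 2.8. At 4 °C it went from 4.36 at 0 h to 6.35 at 48 h. miR-1188-5p (-0.94 ± 0.16, adjusted p = 6.45e-06), miR-370-3p (-0.61 ± 0.14, adjusted p = 0.000294) and miR-770-3p (-0.76 ± 0.18, adjusted p = 0.000378) were next by the ratio of slope to error. For miR-370-3p the liver RT levels went from 0.54 at 0 h, not detected, to 5.36 at 6 h and 7.38 at 48 h, above the intact brain range of 5.76 to 6.55. The positive liver slopes that led by this ratio, of miR-376b-5p (0.31), miR-379-3p (0.32), miR-337-3p (0.27) and miR-369-5p (0.27), were those of members detected on no liver array. The largest in size was 0.43 ± 0.15 for miR-487b-3p (SE, limma, adjusted p = 0.0126), which was detected on 12 of the 14 liver arrays. Slopes were also set against each other between tissues. No member passed in brain against heart, brain against liver or heart against liver (limma, 0 of 66 each), where 7, 8 and 6 had an unadjusted p under 0.05 and 0.0%, 1.23% and 1.35% of all tested miRNAs were called, and up to 40 members passed under another normalization. Without the liver array of 48 h at 4 °C, 7 passed in brain against liver and 5 in heart against liver. This does not show that the slopes were equal.

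Members with a high GC content tended to have low slopes, as did miRNAs at large. Across the 63 tested members with a sequence, Pearson's r between GC content and RIN slope was -0.403 in brain, -0.605 in heart and -0.635 in liver (Spearman's rho -0.266, -0.543 and -0.565). Across the 680 tested miRNAs with a sequence it was -0.497, -0.444 and -0.511. At most 27 of these 63 members were detected on some heart array and at most 31 on some liver array. Most of the heart and liver slopes therefore describe signals under detection, and the values for these tissues are not a trend of detected miRNAs. A correlation over the members detected in the tissue alone was not tested. The points share arrays and normalization and are not independent, so that no p is given. The 11 members with at least 60% GC had a median slope of 0.04 in brain, -0.36 in heart and -0.29 in liver, and the 52 others 0.21, 0.17 and 0.2. miR-1188-3p, with 72.0% GC, had positive slopes in brain and heart, while the other arm of its hairpin, with 61.9% GC, had a negative slope in heart.

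**Figure D4:**
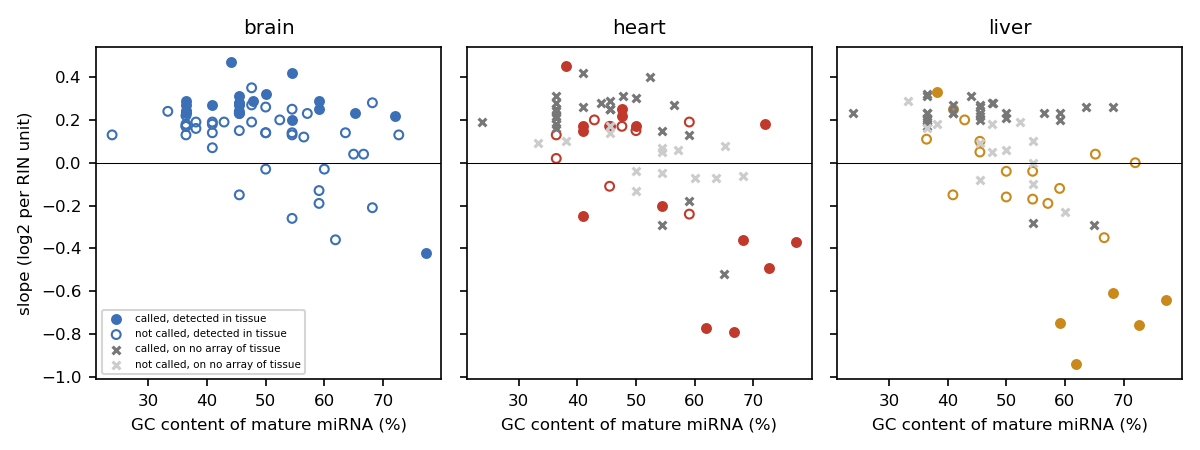
Slope of the level on RIN (log2 per RIN unit, positive where the level is lower in degraded RNA) against the GC content (%) of the mature miRNA for the 63 tested members with a sequence, in brain, heart and liver. Filled circles are called members detected in the tissue, open circles are detected members not called, and crosses are members detected on no array of the tissue (dark where called). The most negative slope, -0.94 in liver, is that of miR-1188-5p with 61.9% GC.

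Storage time was fitted on each slide, and slopes are given per 24 h. At 4 °C no member passed on any slide (limma, 0 of 66), where 2 in brain, 6 in heart and 4 in liver had an unadjusted p under 0.05. Over all tested miRNAs 0.0% were called in brain and heart and 2.94% in liver. At RT 20 members fell and 1 rose in brain (17.8% and 25.4% of all), 33 fell and 8 rose in heart (18.8% and 33.4%), and 31 fell and 15 rose in liver (34.0% and 41.2%). The 21 brain members were the ones called for RIN, as time and RIN run together on the RT slides. Without the RT array of 96 h the brain count was 0 and the heart count 8. The directions are relative to the other miRNAs: with no scaling, which moved the median slope of all miRNAs to 0.28 in brain, 0.31 in heart and 0.46 in liver, 2, 1 and 1 members fell and 10, 11 and 17 rose.

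miR-487b-3p showed the clearest loss at RT. In heart it had 4.57, 3.96 and 2.68 after 0, 6 and 12 h, and from 24 h on it was not detected, with 2.29, 1.22 and -0.49. In liver it went from 4.28 at 0 h to 1.45 at 24 h and was not detected at 48 and 96 h. On the liver slide at 4 °C, which ended at 48 h, it stayed between 4.34 and 5.84. In brain it was detected on all arrays, at 7.56 at 0 h and 6.72 at 96 h of RT. The slopes were -1.25 ± 0.16 in heart (SE, limma, adjusted p = 9.61e-07) and -1.47 ± 0.16 in liver (adjusted p = 1.24e-09). The slopes at RT and at 4 °C were also set against each other. In heart 4 members had a higher and 2 a lower slope at RT (12.5% and 2.82% of all), in liver 7 and 7 (7.98% and 24.5%), and in brain 0 differed (limma, 4 at an unadjusted p under 0.05, 1.47% of all called). The brain count turned on the scaling: 13, 23, 16 and 22 members had a lower slope at RT with the 75th percentile over miRNAs detected throughout, the 75th percentile over all, quantile and normexp, and 3 had a higher one with no scaling. For miR-487b-3p the slope at RT minus that at 4 °C was -0.73 per 24 h in heart (limma, adjusted p = 0.038) and -1.36 in liver (limma, adjusted p = 0.00524).

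Other members of the RT courses are given by tissue, with no test between tissues. In brain the steepest falls by their error were those of miR-541-5p (-0.64 ± 0.14, SE, limma, adjusted p = 0.000679), miR-1188-3p (-0.30 ± 0.07, adjusted p = 0.00102) and miR-667-3p (-0.33 ± 0.08, adjusted p = 0.00346). On this slide miR-1188-3p was detected at 0, 48 and 96 h alone. miR-127-3p went from 9.86 at 0 h over 10.6 at 1 h to 8.95 at 96 h, with -0.37 ± 0.13 (adjusted p = 0.0238). miR-3072-5p rose in all 3 tissues, from 5.32 to 7.9 in brain, from 5.05 to 7.62 in heart and from 4.65 to 8.87 in liver between 0 and 96 h, with slopes of 0.54, 0.65 and 0.81. In heart miR-341-3p rose by 1.40 ± 0.24 (adjusted p = 2.79e-05), miR-1188-5p by 1.41 ± 0.36 (adjusted p = 0.00196) and miR-665-3p by 1.00 ± 0.17 (adjusted p = 3.91e-05). In liver miR-376a-3p (-1.26 ± 0.22, adjusted p = 5.7e-06) and miR-377-3p (-0.63 ± 0.10, adjusted p = 1.31e-06) fell, the first detected on the array of 0 h alone and the second on none. miR-540-3p, miR-431-5p and miR-299a-3p rose in liver with 1.14, 1.16 and 1.01, of which miR-431-5p was detected at 48 and 96 h (1.4 and 2.35), miR-299a-3p at 96 h (0.19) and miR-540-3p never.

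miR-134-5p, which was singled out after its values were seen, went up in the cold on brain and heart arrays with intact RNA. On the brain slide at 4 °C its levels after 0, 1, 6, 12, 24, 48 and 96 h were 3.22, 3.19, 3.77, 5.23, 6.45, 7.53 and 8.62, with RIN between 7.3 and 8.7. On the heart slide at 4 °C it was not detected at 1 h (2.47) and stood at 4.21, 6.06 and 8.75 after 6, 24 and 96 h, with RIN between 8.1 and 8.8. On the liver slide at 4 °C it was first detected at 12 h, at 3.42, and was at 4.48 at 48 h. From 6 h on each later array of a slide at 4 °C was above the one before, and the heart array of 96 h stood at the level of the brain array of 96 h.

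At RT high levels of miR-134-5p came earlier, and in brain and heart they were lower again at the end. In brain it went from 2.45 at 0 h to 6.54 at 3 h and 7.22 at 12 h, and back to 4.59 at 48 h. In heart it went from 1.49 at 0 h, not detected, to 7.34 at 12 h and 4.92 at 96 h. In liver it reached 6.4 at 24 h from 0.1 at 0 h, not detected, and was at 5.65 at 96 h. These courses are not straight lines in hours, and the linear fit did not call the 4 °C slides (1.42 ± 0.43 per 24 h in brain, SE, limma, adjusted p = 0.226, and 1.35 ± 0.45 in heart, adjusted p = 0.262). Fitted on log2 of hours plus 1, the slope per unit at 4 °C was 0.9 ± 0.19 in brain (adjusted p = 0.00682), 1.07 ± 0.24 in heart (adjusted p = 0.0234) and 0.68 ± 0.24 in liver (adjusted p = 0.0525). In that fit 2.21% of all tested miRNAs were called as rising in brain and 0.613% in heart at 4 °C, and 32.3% in heart and 48.1% in liver at RT. On the RT slides it was 0.29 ± 0.19 in brain (adjusted p = 0.223), 0.67 ± 0.19 in heart (adjusted p = 0.00442) and 0.76 ± 0.19 in liver (adjusted p = 0.000541). Between the first and the last array the change was 6.28 in heart at 4 °C, rank 1 of 815, and 5.4 in brain at 4 °C, rank 4 of 815, while the other 65 members changed by -1.98 to 1.71 and by -1.45 to 1.19. On the other slides it did not lead. Its rank was 78 on the liver slide at 4 °C, with a change of 3.12 against 3.89 for miR-376c-3p, and 204, 170 and 133 on the brain, heart and liver slides at RT. The neighbours along the chromosome, miR-382-5p and miR-485-5p, changed by -0.62 and -0.65 in brain. Over all intact arrays miR-134-5p therefore had a wide spread, 5.23 ± 2.03 in brain (SD, n = 14) and 5.26 ± 2.20 in heart (n = 13), and its difference of -0.03 between brain and heart (limma, adjusted p = 0.975) sums over storage times.

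**Figure D5:**
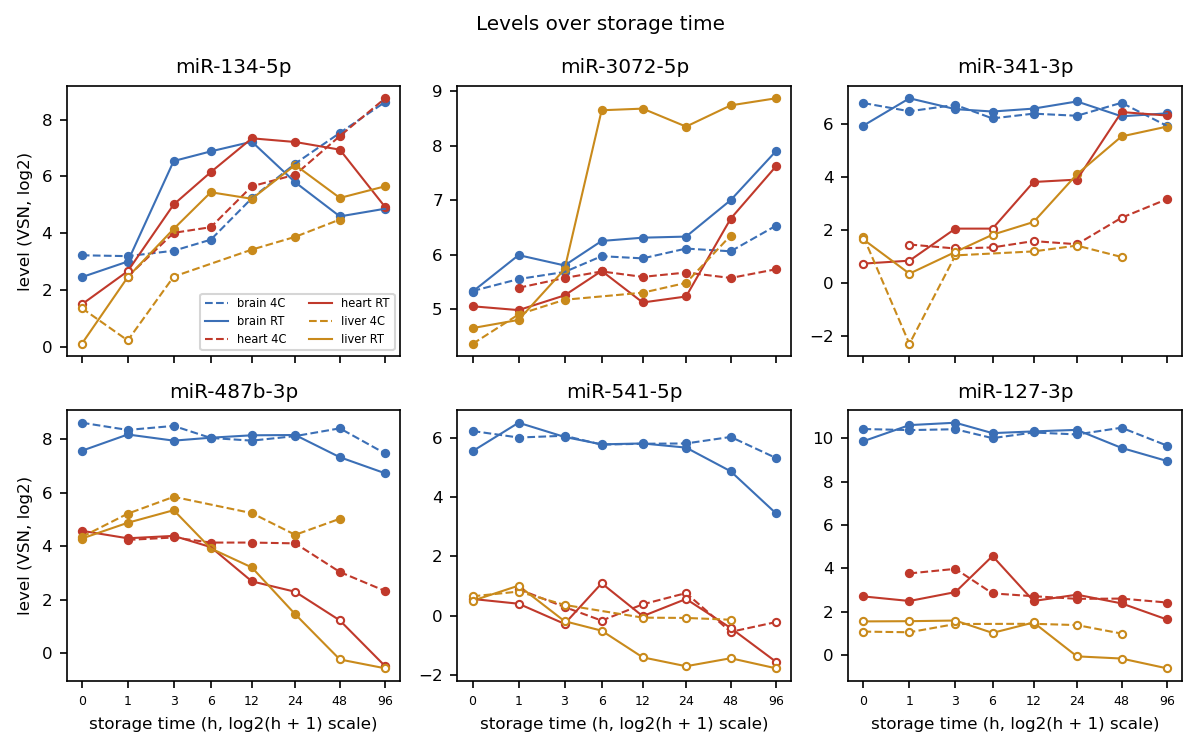
Level (VSN, log2) of 6 members against storage time (h, on a log2 axis of hours plus 1), by tissue (colour), with solid lines for RT, dashed lines for 4 °C and hollow points where the miRNA was not detected. miR-134-5p reaches 8.62 in brain and 8.75 in heart at 96 h and 4 °C, while miR-487b-3p falls below detection in heart and liver at RT.

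Finally, the 8 liver arrays of low integrity were compared with the 6 intact ones by the exact 2-sided Wilcoxon-Mann-Whitney test. Of the 66 members 3 were higher and 6 lower by at least 2-fold at an adjusted p under 0.05, against 24.3% and 2.21% of all tested miRNAs. miR-1188-5p was detected on 5 of the 8 low arrays and on none of the intact ones, with a lowest, median and highest level of -1.45, 2.76 and 3.07 against -3.86, -2.94 and -0.15, a difference of 4.10 (exact p = 0.00266, adjusted p = 0.0271). miR-134-5p was 2.97 higher (exact test, adjusted p = 0.0286) and miR-3072-5p 2.54 higher (exact test, adjusted p = 0.0322). The 6 lower members, miR-431-3p, miR-329-3p, miR-299b-5p, miR-411-3p, miR-337-3p and miR-409-5p, differed by -1.07 to -1.25, and 5 of them were detected on no liver array. The median difference was -0.58 over the 66 members and 0.33 over all tested miRNAs, and 1.38 over the Sfmbt2 cluster. The RT slide held 7 of the 8 low arrays, and the 4 °C slide 5 of the 6 intact ones. In limma with slides as blocks 0 members were called.

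The call of these 9 members turned on single arrays. There were 2 calls without the 4 °C array of 0 h, 0 without that of 1 h, 1 without the RT array of 0 h, 20 without that of 1 h (RIN 6.0), 5 without that of 6, 24 or 48 h and 4 without that of 96 h. Scaled by the 75th percentile over miRNAs detected throughout, 0 were higher and 5 lower, and with no scaling 3 were higher and 0 lower.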

How the data were processed

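Single-colour Agilent miRNA arrays were read per spot, with 1881 mouse miRNAs on 46 arrays. The scanner files deposited by the authors give intensity values (background-subtracted spot and gene signals with detection flags). The authors also deposited a table of log2 values after variance stabilizing normalization. VSN, which calibrates arrays against each other and takes a log-like transform, was repeated here from the gene signals, using the summed probe signal where a miRNA was not detected, and differed from the deposited log2 table by at most 0.0104. Of the heart arrays, that of 0 h from the 4 °C slide was left out, as the study did for low data quality, which gave 45 arrays. The labels give 12 h for a time point that the methods give as 14 h, and the label was used, with the other as an alternative. The members and lists were chosen with earlier results of these data known. miRNAs detected on at least 5 arrays were tested in limma 3.58.1 (R 4.3.3) with the slide as a random block (consensus correlation 0.0197) for tissues, and with 1 intercept per slide and 1 slope per tissue or slide for RIN and time. The liver comparison used the exact Wilcoxon-Mann-Whitney test over all divisions of the arrays, in R. Python 3.11.15 with SciPy 1.17.1 served the normalization and the correlations with GC content. Calls needed a Benjamini-Hochberg adjusted p under 0.05 and, between groups, at least 2-fold.

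Named were the 10 brightest members in brain, the 5 largest differences per tissue comparison, members detected on all arrays, the 4 (RIN) or 3 (time) with the largest t in each direction, at most 4 per direction in the liver comparison, and the 3 hairpins whose arms differed most. Others were chosen after their values were seen. Alternatives were the deposited table, 75th percentile, quantile, no scaling, normexp, the filter, Bonferroni adjustment, log2 of hours plus 1, temperature and time as a block, other sets of arrays and leaving out each array. The number of arrays limits the precision, and no spot was saturated. The procedures were tested on simulated data.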

Additional observations from a re-analysis of the deposited data

Results flagged for a closer look

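Of 86 groups of liver arrays tested, intact and of low integrity, for 42 named members and for the number of members detected, 11 held an array far from the others, where chance gives about 1 in 20, and 9 of these values were not detected. In intact liver the 4 °C array of 0 h was far off for miR-136-5p (1.46, others 1.84 to 2.03), miR-433-3p (-0.28, others -4.03 to -3.34), miR-540-3p (-1.56, others -4.86 to -4.37) and miR-299b-5p (2.62, others 1.71 to 2.03). The 4 °C array of 1 h was far off for miR-341-3p (-2.29, others 1.05 to 1.75) and that of 3 h for miR-496a-3p (-1.54, others 0.12 to 0.71). In liver of low integrity the RT array of 12 h was far off for miR-1188-3p (1.9, detected, others 2.31 to 2.67) and miR-667-3p (1.21, others 0.3 to 0.68), the RT array of 1 h for miR-770-3p (-3.61, others 0.41 to 3.98), and the RT array of 96 h for miR-540-3p (0.31, others -4.69 to -2.91) and miR-299a-3p (0.19, detected, others -4.12 to -2.31).

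The time slopes at RT and at 4 °C differed by the test of their difference for 6 members in heart, of which 4 were higher at RT and 2 lower (12.5% and 2.82% of all tested miRNAs), and for 14 in liver, with 7 and 7 (7.98% and 24.5%). In brain 0 differed (limma, 4 at an unadjusted p under 0.05). With the 75th percentile over miRNAs detected throughout, the 75th percentile over all, quantile, no scaling and normexp the counts were 13, 23, 16, 3 and 22 in brain, 2, 7, 4, 8 and 3 in heart and 7, 6, 6, 7 and 4 in liver. On log2 of hours plus 1 they were 0, 5 and 36, without the arrays of 96 h 0, 0 and 20, and with no detection filter 0, 13 and 12 in the same order, and with Bonferroni adjustment 0 in each. In heart the differences of RT minus 4 °C, in log2 per 24 h, were -0.73 for miR-487b-3p (limma, adjusted p = 0.038), -0.4 for miR-1188-3p (adjusted p = 0.0151), 0.94 for miR-665-3p (adjusted p = 0.0201) and 1.64 for miR-1188-5p (adjusted p = 0.0369). In liver they were negative for miR-376a-3p (-2.02, limma, adjusted p = 0.0025), miR-487b-3p (-1.36, adjusted p = 0.00524) and miR-323-3p (-0.89, adjusted p = 0.0392). They were positive for miR-431-5p (1.66, adjusted p = 0.00287), miR-540-3p (1.52, adjusted p = 0.00312), miR-494-3p (1.39, adjusted p = 0.01), miR-299a-3p (1.21, adjusted p = 0.0203), miR-485-3p (1.07, adjusted p = 0.0352), miR-382-5p (0.97, adjusted p = 0.0476) and miR-433-5p (0.69, adjusted p = 0.0499). The liver slide at 4 °C ended at 48 h and that at RT at 96 h. The heart count was 0 without the 4 °C array of 96 h, 3 without that of 3 or 6 h or the RT array of 1 h, 2 without the RT array of 48 or 96 h, and 10 without the brain RT array of 1 h. The liver count was 7 without the 4 °C array of 0 h, 2 without that of 48 h and 23 without the RT array of 96 h.

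On the heart array set aside 6 members were detected, among 215 miRNAs in all. A further 11 members were detected on 1 to 4 of the 45 arrays and so not tested. Of their 16 detections 13 fell on the 12 arrays of low integrity, and 8 of the members were seen on those arrays alone. Arrays of low integrity tended to detect more of all miRNAs too. The share over all miRNAs with 1 to 4 detections was not counted. miR-412-3p, miR-493-3p and miR-3070-5p were detected on the liver RT array of 96 h, miR-758-5p and miR-770-5p on that of 24 h, and miR-668-3p on the heart 4 °C array of 96 h.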

How the results depend on the processing

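The labels give every array the replicate number 1, so that the numbers pair nothing, and whether tissues share animals is not settled by the sources. With arrays of the same temperature and storage time as a replicate block, a setting chosen after seeing the data, the calls were 59 for brain against heart, 59 for brain against liver and 21 for heart against liver, as without it. Among counts of called members, 98 alternatives moved the count by more than 1.5 times or the detection median beyond its spread, and 629 did not. With 14 h in place of 12 h the RT time calls were 41 in heart, 47 in liver and 22 in brain, and 0 at 4 °C. With normexp correction brain against heart and brain against liver each had 27 calls in place of 59. Heart against liver had 8 calls scaled by the 75th percentile over miRNAs detected throughout, 1 with normexp and 10 with Bonferroni adjustment, in place of 21. For the settings 75th percentile over miRNAs detected throughout, 75th percentile over all, quantile, no scaling and normexp, the RIN calls were 17, 22, 22, 12 and 7 in heart (41 as reported), 18, 18, 17, 11 and 11 in liver (37), and 38, 54, 44, 10 and 51 in brain (21). The RT time calls were 19, 22, 24, 12 and 5 in heart (41), 13, 20, 19, 18 and 10 in liver (46), and 36, 54, 42, 12 and 49 in brain (21). The calls of low against intact liver were 5, 2, 4, 3 and 0 (9).

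Without the detection filter the RIN calls were 66 in heart, 62 in liver and 36 in brain, the RT time calls 64 in heart and 33 in brain, and the liver comparison had 20. With Bonferroni adjustment the RIN calls were 7, 6 and 1, the RT time calls 6, 15 and 1 and the liver comparison 0. A slope pooled over tissues gave 46 RIN calls, 7 RT time calls and 1 time call at 4 °C. Without the RT arrays of 96 h there were 10 RIN calls in heart and 1 in brain, and 8 and 0 time calls. With RIN over 6 alone there were 3 RIN calls in heart, 0 in liver and 1 in brain. For time at 4 °C, where the fit called 0, heart had 1 call under either 75th percentile, 2 with quantile and 2 with normexp, liver had 1 with the 75th percentile over all and 1 with normexp, and brain had 7 with normexp. On log2 of hours plus 1 there was 1 call in heart, 2 in liver and 1 in brain at 4 °C. The liver comparison had 0 calls with the slide as a block, 20 without the array with RIN 6.0, 19 without adjustment, and 4 without the RT array of 96 h, a setting chosen after seeing the data. Counting a member as detected with at least 1 spot above background gave medians of 61.5, 22 and 18.5 members in intact brain, heart and liver in place of 59, 11 and 5.

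When each array was left out in turn, the calls ranged from 59 to 59 for brain against heart, 59 to 60 for brain against liver, 18 to 22 for heart against liver, 10 to 42, 21 to 46 and 1 to 24 for RIN in heart, liver and brain, 8 to 42, 43 to 49 and 0 to 29 for time at RT in the same order, 0 to 0, 0 to 1 and 0 to 0 at 4 °C, and 0 to 20 for the liver comparison. The call at 4 °C in liver appeared without the RT array of 0 h. Signs turned for single members: with RIN over 6 alone the liver slopes were -0.26 for miR-379-3p, 0.82 for miR-1188-5p, 0.57 for miR-370-3p and 1.38 for miR-770-3p, and with no scaling miR-1188-3p had -0.02 for RIN and 0.02 for time in brain. Of the other values of single members 3622 stayed on their side, 223 lost and 3 gained a call, and 54 moved. The cause of these changes was not tested. Low signals limit heart and liver most, where many members lie under detection.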

Other observations

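Members that share a seed were not bright together in every case, in pairs chosen after their values were seen. miR-379-3p and miR-411-3p were both detected on 16 arrays, all from brain, with mean levels of 4.51 and 6.34 in intact brain. miR-379-5p was at 7.53, while miR-1193-5p with the same seed was detected on no array.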
